A study of Homo sapiens with 2 samples.

Results

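Some entries of the human miRNA catalogue have sequences that overlap or resemble other structured non-coding RNA, such as transfer RNA (tRNA) or the U2 small nuclear RNA (snRNA) of the spliceosome. Of the 2565 miRNA probes on the array, 10 such entries, chosen by name, are described here: hsa-miR-4454, hsa-miR-7975, hsa-miR-7977, hsa-miR-5100, hsa-miR-4284, hsa-miR-1260a, hsa-miR-1260b, hsa-miR-4286, hsa-miR-1246 and hsa-miR-1290, from here on without the prefix hsa, which stands for human. They were picked with their brightness on these arrays known, so their high signal is a description and was not tested. The cells were 22Rv1, a long-established line of human prostate cancer cells, grown in RPMI1640 medium, and ISOGEN was used to extract total RNA. Untreated cells were the control, and luteolin, a plant flavone, was given at 25 µM; the time was 48 h for both. With 1 array for each condition and 1 spot for each miRNA, no difference between the conditions could be tested, and the values describe this pair of arrays. Paired values below give the control array first and the luteolin array second unless they say otherwise.

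A tRNA is a folded adaptor whose 3′ end carries the bases CCA, which an enzyme adds after transcription, and cells cut tRNAs into shorter fragments, some of which keep that end. U2 snRNA pairs with the branch site of introns, and miR-1246 has been described as a fragment of it. An array probe reports RNA that binds to it, so the signal of such an entry can come from a processed miRNA, from a fragment of a longer RNA or from that longer RNA itself. No sequences of tRNA, rRNA or snRNA were analysed here, so these overlaps are background and not a result. For miR-5100, miR-4284 and miR-4286 it is not stated here which structured RNA they resemble.

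The mature sequences of the entries are shown because several of them are near copies of each other. RefSeq's table for the build GRCh38.p14 held 9 of the 10 by name, all but miR-4286, each at 1 locus. In this list the capitals mark the seed, bases 2 to 8, with which a miRNA pairs to its targets.
miR-4454: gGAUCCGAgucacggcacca
miR-7975: aUCCUAGUcacggcacca
miR-7977: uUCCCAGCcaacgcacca
miR-5100: uUCAGAUCccagcggugccucu
miR-4284: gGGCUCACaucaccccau
miR-1260a: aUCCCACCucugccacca
miR-1260b: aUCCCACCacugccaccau
miR-1246: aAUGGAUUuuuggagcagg
miR-1290: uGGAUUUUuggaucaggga
Only miR-1260a and miR-1260b had the same seed among these 9, and none of the 9 shared its seed with any of the other entries among the 2253 array entries matched to a sequence. The 9 sequences were short, with a median of 19 bases against 22 over all 2253, and 8 of them had 20 bases or fewer, as 343 entries in all did.

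Kinship also went beyond the seed. MiR-4454 and miR-7975 shared their last 13 bases as an unbroken run, in capitals here, although their seeds differed. Just before that run they differ at 1 base, and before it they share the bases AUCC, with which miR-7975 begins.
miR-4454: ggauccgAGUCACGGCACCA
miR-7975: auccuAGUCACGGCACCA
MiR-1246 and miR-1290 shared 12 bases, but with an offset of 2 bases, so their seeds differed as well.
miR-1246: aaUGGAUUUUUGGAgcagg
miR-1290: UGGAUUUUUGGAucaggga
Counted from 1 at the 5′ end of miR-1260a, the substitution from miR-1260a to miR-1260b was U9A, and miR-1260b had 1 base more at its 3′ end. The 5 bases CACCA ended miR-4454, miR-7975, miR-7977 and miR-1260a and lay 1 base before the end of miR-1260b.

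In the genome the 9 entries lie on separate chromosomes. MiR-4454 is at chr4:163093607-163093626 on the minus strand, miR-7975 at chr19:55123225-55123242 on the minus strand, miR-7977 at chr3:176515103-176515120 on the plus strand and miR-5100 at chr10:42997630-42997651 on the plus strand. For these 4 and for miR-1246, at chr2:176601024-176601042 on the minus strand, RefSeq placed no other gene across the locus. MiR-4284, at chr7:73711327-73711344 on the plus strand, lies within the span of STX1A. MiR-1260a, at chr14:77266231-77266248 on the plus strand, lies within NGB. MiR-1260b, at chr11:96341447-96341465 on the plus strand, lies within MAML2, and miR-1290, at chr1:18897078-18897096 on the minus strand, lies within ALDH4A1. These overlaps rest on position alone. The strands of the 4 genes and exon and intron positions were not analysed here, so the genes are not shown to be hosts.

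The label of the cells fitted most of their markers. All 5 epithelial and luminal miRNAs chosen as markers (miR-200c-3p, miR-200b-3p, miR-141-3p, miR-375 and miR-148a-3p) were brighter on both arrays than any Negative Control spot. Of the 9 markers of blood, muscle and stroma, and liver, only miR-451a did so, at raw signals of 94.1 and 70.9 units. The highest Negative Control spots gave 93.7 and 69.4. On the control array miR-375 and miR-148a-3p were also close to that limit, at 96.0 and 96.8 units. On the luteolin array they gave 78.7 and 117. The authors subtracted backgrounds of 81.0 and 66.2 units and listed 811 and 984 miRNAs above limits of 84.0 and 67.3, 701 of them on both arrays. The Spike Control probes, which take up a standard added to the RNA, were 2.68-fold dimmer on the luteolin array after background subtraction. The summed miRNA signal was higher there, but without the 10 entries it was lower, at a ratio, luteolin over control, of 0.930. Results across the arrays therefore depend on how they are scaled, and shares within an array, which need no scaling, come first below.

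Together the 10 entries made up 82.6% ± 0.527 of the summed background-subtracted signal of the listed miRNAs in the control and 87.1% ± 0.355 with luteolin. The errors, here and below, are standard errors from repeated spots of control probes within an array, and cover neither culture nor array variation. The difference was 4.53 ± 0.635 percentage points. In units, the entries summed to 113589 and 150572, a ratio, luteolin over control, of 1.33, while the other listed miRNAs summed to 23966 and 22291, a ratio of 0.930. A share of signal is not a share of molecules, since each probe binds with its own strength.

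**Figure D1:**
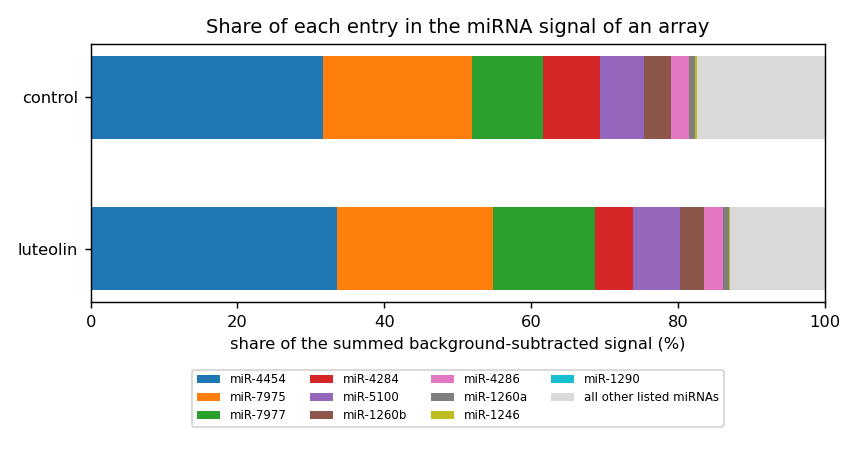
Share of each entry, in percent, in the summed background-subtracted signal of the listed miRNAs (horizontal axis), with 1 bar for each array; grey is all other listed miRNAs. The grey part is 17.4% in the control bar and 12.9% in the luteolin bar; miR-1246 and miR-1290 are too thin to be read.

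The description of the entries as bright held for 8 of the 10. These 8 filled the 8 top ranks on both arrays, with 1 exchange of places, miR-4284 ranking 4 and then 5 and miR-5100 5 and then 4. MiR-1246 ranked 28 and 38, and miR-1290 ranked 93 and 120. The dimmest of the 8, miR-1260a, held 0.894% and 0.879% of the signal, and the brightest non-member held 0.731% on the control array (miR-6822-5p) and 0.652% on the luteolin array (miR-6765-3p). All 10 were brighter than any Negative Control spot on either array, so each had a measured level on both sides.

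**Figure D2:**
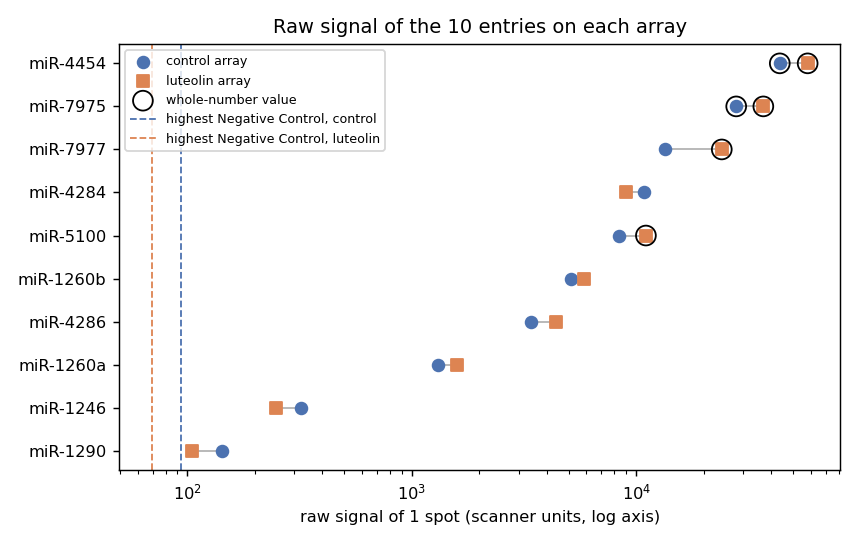
Raw signal of the 1 spot of each entry (log axis, scanner units) on the control array (circles) and the luteolin array (squares); rings mark values that are whole numbers, and dashed lines the highest Negative Control spot. Of the 10, miR-4284, miR-1246 and miR-1290 are dimmer on the luteolin array, and the other 7 are brighter.

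Among the entries with the CACCA end, miR-4454 gave raw signals of 43621 and 58063 units. It alone held 31.7% ± 1.7 and 33.6% ± 1.5 of the signal. Its near copy miR-7975 gave 27899 and 36848 units, or 20.2% ± 1.3 and 21.3% ± 1.2 of the signal. Both were brighter with luteolin, but their summed share differed by 2.95 ± 1.91 points, less than 2 standard errors. As background, another probe-based assay reads miR-4454 and miR-7975 with a common probe. The target sequences of their spots here share an unbroken run of 13 bases and, past 1 mismatch, further bases before it. How far 1 RNA bound to both was not tested.

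MiR-7977 has been reported in vesicles released by leukaemia cells. Its raw signal went from 13455 units to 24059, and its share from 9.72% ± 0.70 to 13.9% ± 0.82. Of the 10 entries it had the largest ratio of background-subtracted signal, 1.79, against 1.33 for miR-4454 and 1.32 for miR-7975. A difference between 2 entries in their log2 ratio is the same under any scaling that multiplies an array by 1 factor. That difference was 0.44 ± 0.20 between miR-7977 and miR-7975, which both end in GCACCA, a little over 2 standard errors. Of the 45 pairs among the 10 entries, 28 differed by more than 2 standard errors, so such a gap was common in the set.

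MiR-1260a and miR-1260b moved alike. MiR-1260b, reported as a growth-promoting miRNA that the isoflavone genistein lowers in prostate cancer cells, gave raw signals of 5105 and 5863 units. MiR-1260a gave 1310 and 1585 units. Their ratios of background-subtracted signal were 1.15 and 1.24, and the difference of their log2 ratios, 0.10 ± 0.20, was within its error. MiR-1260b kept 3.65% ± 0.28 and 3.35% ± 0.22 of the signal. The 5 entries with CACCA at or 1 base before the end together held 66.1% ± 1.1 and 72.9% ± 0.81, a difference of 6.80 ± 1.36 points.

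Entries with a CACCA end were few. Of the 2253 array entries with a sequence, 6 (0.266%) ended in CACCA and 4 of these were members; the other two, miR-4252 and miR-876-5p, were not above the Negative Control spots.
miR-4252: ggccacugagucagCACCA
miR-876-5p: uggauuucuuugugaauCACCA
MiR-4252 gave raw signals of 81.0 and 67.7 units and miR-876-5p gave 82.2 and 65.2, close to the backgrounds of 81.0 and 66.2. Both were picked for their ends, after values were seen. Since the members were chosen as bright, the non-members with this end are what that choice left, and whether the end goes with the signal was not tested. Of the 5 non-members with CACCA within the last 6 bases, 0 were brighter than all Negative Control spots of both arrays, against 12.0% of all entries with a sequence.

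Entries that share a shorter run with a member were also dim. An unbroken run of 10 bases with a member occurred in 2 non-members, both with miR-1260b, and the run is in capitals here.
miR-1229-3p: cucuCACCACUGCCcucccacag
miR-6509-3p: uuCCACUGCCACuaccuaauuu
MiR-1229-3p gave raw signals of 89.2 and 78.1 units, of which the first lay below the highest Negative Control spot, and miR-6509-3p gave 78.2 and 67.0, with both below. MiR-212-3p, named after its values were seen, shares 9 bases inside the 13-base run of miR-4454 and miR-7975.
miR-212-3p: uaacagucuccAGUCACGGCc
It gave 87.2 and 69.8 units, and the first of these lay below the highest Negative Control spot. Of all 343 entries with 20 bases or fewer, members included, 66 (19.2%) were brighter than all Negative Control spots, against 12.0% of all entries with a sequence. Among the 335 of them that are non-members the highest raw signals were 1086 and 824 units.

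Of the other members, miR-5100, which lacks the CACCA end, and miR-4286, whose sequence was not available here, ran with miR-4454 and miR-7975. MiR-5100 gave raw signals of 8348 and 11047 units, and miR-4286 gave 3397 and 4375. Their ratios of background-subtracted signal were 1.33 and 1.30, so that 4 entries lay between 1.30 and 1.33. Before any scaling between the arrays, miR-4284 went the other way, from 10800 to 9039 units, a ratio of 0.837. With the authors' scaling, described below, miR-4284 was higher on the luteolin array, at a log2 ratio of 0.35. Its share was 7.79% ± 0.57 and then 5.19% ± 0.34. Its log2 ratio was 0.67 ± 0.20 below that of miR-4454 and 1.10 ± 0.20 below that of miR-7977.

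The entries related to U2 snRNA, both reported in vesicles or plasma of patients with prostate cancer, were the dimmest and lowest in ratio. MiR-1246 gave raw signals of 320 and 249 units, and miR-1290 gave 143 and 105. Before any scaling between the arrays both were dimmer on the luteolin array, with ratios of background-subtracted signal of 0.765 and 0.629. Their summed share was 0.219% ± 0.015 and 0.128% ± 0.0076. Between them the log2 ratios differed by 0.28 ± 0.20. Both lay below the other 8: the log2 ratio of miR-1246 was 0.80 ± 0.20 below that of miR-4454, and that of miR-1290 was 1.08 ± 0.20 below it. Against miR-4284, the lowest of the 8, the gap of miR-1246 was 0.13 ± 0.20, within its error. The gap of miR-1290 was 0.41 ± 0.20, a little over 2 standard errors. The signal of miR-1290 was modest, since 4 of 85 spots labelled No Probe were brighter than all Negative Control spots, the highest at 175 and 179 units.

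The raw values of the brightest members were written in another way than the rest. Of 3200 spots, 2 on the control array (miR-4454 and miR-7975) and 4 on the luteolin array (these 2, miR-7977 and miR-5100) held exact whole numbers, and every other spot on both arrays had decimals. Within each array the whole numbers all lay above the values with decimals. On the control array the lowest whole number was 27899 units and the highest value with decimals 13455. On the luteolin array these were 11047 and 9039. Since 11047 is below 13455, 1 signal limit common to both arrays did not divide them. The sources used here give no reason. MiR-7977 and miR-5100 thus have a whole number on 1 array and decimals on the other, and whether this touches their ratios was not tested. Without these 4 members the share of the other 6 among the remaining miRNAs was 46.2% and 48.3%.

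Whether the entries differ in level between the conditions rests on the scaling. The authors' deposited normalized values put the median log2 ratio, luteolin over control, of the 701 miRNAs listed on both arrays at 0. On this scale, called the authors' scale, 9 of the 10 entries were above 0 and 1 below, with a median of 0.95, a 1.93-fold difference, against -0.01 for the 691 other miRNAs. Since these 691 are most of the 701, their median near 0 follows from the scale. MiR-7977 went from 40577 to 111102, a log2 ratio of 1.45 ± 0.14. MiR-4454 stood at 1.02 ± 0.14 and miR-1260b, from 15243 to 26842, at 0.82 ± 0.14. MiR-1260a went from 3729 to 7034, at 0.92 ± 0.14. MiR-1246 stood at 0.22 ± 0.14 and miR-1290 at -0.06 ± 0.14, with levels of 189 and 182, closer than their error.

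At a size rule of an absolute log2 ratio of 1 or more, 4 of the 10 were higher on the luteolin array and 0 lower; over all 701 miRNAs 13.4% were higher and 5.14% lower. MiR-4454 and miR-5100 passed the rule at 1.02 and miR-7975 at 1.01, and miR-4286 missed it at 0.99. All were well within the error of 0.14 of the limit, so the count of 4 says little by itself. The 4 that passed, miR-4454, miR-7975, miR-7977 and miR-5100, were the same 4 that held whole numbers on the luteolin array. Whether this touches the count was not tested. Among the 310 miRNAs brighter than all Negative Control spots, which include the 10 members, 18.4% were higher and 0.645% lower. The share passing the rule upward also grew with brightness. Among the 691 non-members it was 3.47% in the 173 dimmest and 27.7% in the 173 brightest, with median log2 ratios of -0.30 and 0.28. The 7 brightest non-members, the top 5 of either array, ran from -0.36 for miR-7704 to 1.68 for miR-4723-5p, with a median of 0.45, and 3 of the 7 passed the rule. The range of these 7 took in that of the 10 entries, -0.06 to 1.45.

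**Figure D3:**
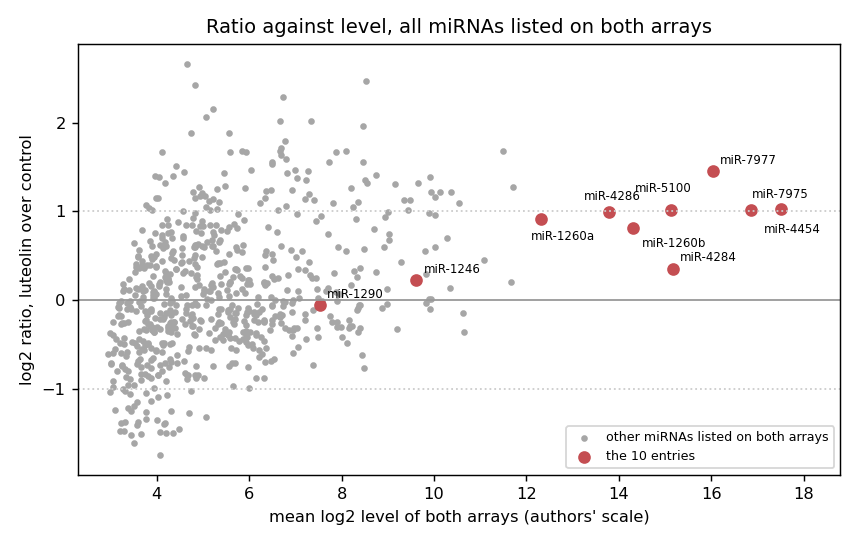
Log2 ratio, luteolin over control (vertical axis), against the mean log2 level of both arrays (horizontal axis), both on the authors' scale, for 701 miRNAs listed on both arrays. The 10 entries are red; 8 of them lie to the right of all others, and 9 lie above 0.

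A scaling by 1 factor for each array moves all 10 entries together. With no scaling between the arrays 7 were above 0 and 3 below, with a median log2 ratio of 0.34, while the median of all 701 miRNAs was -0.61. On that scale 0 members passed the size rule upward and 0 downward, against 3.14% and 23.5% of all miRNAs. Scaled to the spike-in controls, all 10 were above 0, with a median of 1.76, and so was the median of all miRNAs, 0.81. There 9 members passed upward and 0 downward, against 40.2% and 0% of all. With median scaling, 7 members passed upward, against 20.5% of all, and 0 downward, against 2.71%. With 75th percentile scaling 1 member, miR-7977, passed upward, against 7.42%, and 0 downward, against 10.7%. Scaled to the summed non-member signal, 0 passed either way, against 3.99% upward and 18.1% downward. With the blank median as background, 4 passed upward, against 13.0%, and 0 downward, against 5.28%. The count past the rule thus ran from 0 to 9 with the factor chosen. A scaling by 1 factor shifts the members and all other miRNAs alike, and under each of them miR-1290 lay just below the median of all 701. The direction of 7 entries (miR-4454, miR-7975, miR-7977, miR-5100, miR-1260a, miR-1260b and miR-4286) was upward in each of these scalings, while those of miR-4284, miR-1246 and miR-1290 depended on the factor. Quantile normalization after normexp background correction, under which 0.143% of all miRNAs were higher and 0% lower by the size rule and 0 members were either, gave 6 of the 10 a log2 ratio of exactly 0, because it assigns equal values to equal ranks. With this method miR-4284 stood at -0.33 and miR-5100 at 0.33, which is their exchange of ranks.

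**Figure D4:**
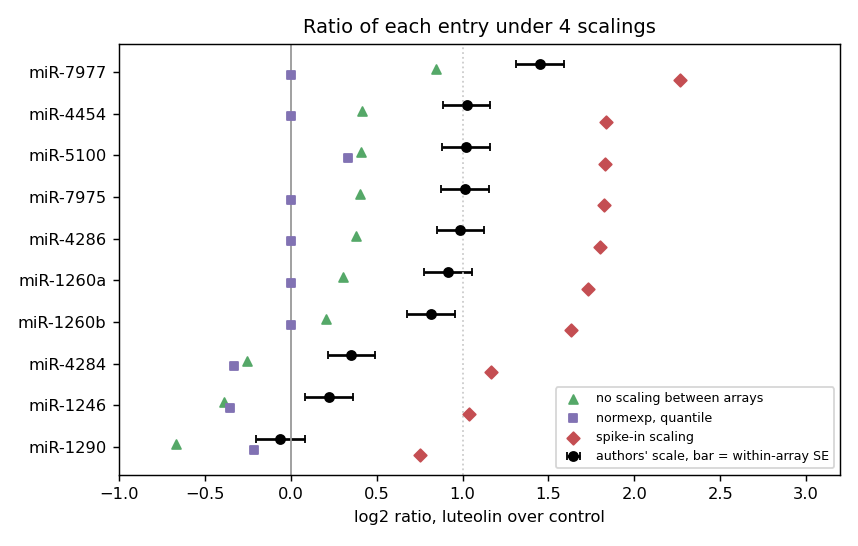
Log2 ratio of each entry (horizontal axis), luteolin over control, under 4 scalings; horizontal bars are within-array standard errors on the authors' scale. Apart from quantile normalization, each scaling keeps the same order, from miR-7977 at the top to miR-1290 at the bottom.

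Other catalogue entries that overlap structured RNA were far dimmer than the 8 brightest members, although a few were brighter than miR-1246 and miR-1290. The 8 filled the 8 top ranks and were picked with their brightness known, so any other list had to be dimmer than they were. A list of 17, chosen from general knowledge, held entries within small nucleolar RNAs, near ribosomal RNA spacers and from mitochondrial RNA. Of these 10 were listed on both arrays and 9 were brighter than all Negative Control spots, and the listed ones held 0.687% and 0.359% of the signal. Their median log2 ratio, scaled as the authors did, was 0.04 over the 10, with 5 above and 5 below 0, and 1 passed the size rule upward, against 13.4% of all miRNAs. That was miR-664a-3p, within a small nucleolar RNA, whose control signal of 88.8 units lay below the highest Negative Control spot.

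The brightest of this list were miR-1973, of mitochondrial type, and miR-3648, near the ribosomal RNA spacer. MiR-1973 gave raw signals of 409 and 267 units, with a log2 ratio of -0.10 ± 0.14, and miR-3648 gave 353 and 284 units, at 0.29 ± 0.14. The lowest was miR-3651, within a small nucleolar RNA, at 223 and 126 units and -0.63 ± 0.14. The highest of the 9 measured ones was miR-664b-3p, at 0.62 ± 0.20. The ratios of the 9 thus spread around 0 on this scale. All lay below that of miR-1260b, at 0.82 ± 0.14, the lowest but one of the 8 bright members. The ratio of miR-664b-3p lay above that of the lowest of the 8, miR-4284, at 0.35 ± 0.14. Whether the lists differ was not tested.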

How the data were processed

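Per the labels' protocols, 250 ng of total RNA was labelled with Cy5 with a 3D-Gene kit. The authors deposited linear scanner intensity for 3200 spots. By rules found in the values, the authors took off the blanks' mean, trimmed by 5% on both sides, and listed intensities more than 2 SD above it. They multiplied these by 3.03 (control) and 5.77 (luteolin), which set the median at 25. The luteolin array was multiplied by a further 0.803, which put the median log2 ratio of the 701 miRNAs listed on both arrays at 0. The authors' reason for this factor, like the scanner and software, was not stated in these sources. Shares used the background-subtracted intensity, and ratios the deposited normalized one. Errors combined the blank SD (1.48 and 0.591 units) with the pooled coefficient of variation of 5 bright control probes (7.34% and 6.23%). The number of arrays limits the precision. Alternatives used limma 3.58.1 (normexp, offset 50) in R 4.3.3; other work used Python 3.11.15, pandas 2.3.3 and numpy 2.4.6. The code was tested on simulated data. Named were the members, entries with a member's seed or a run of 10 bases of it, the 5 brightest non-members of each array and the list of 17. Members and lists were chosen with earlier results of these data known. Sequences are RefSeq's, from GRCh38.p14.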

Additional observations from a re-analysis of the deposited data

Results flagged for a closer look

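Signal appeared in spots outside the comparisons. The highest spot labelled No Probe gave 175 units in the control and 179 with luteolin, above the highest Negative Control spots of 93.7 and 69.4 units. The control probe S-Probe1014, whose target these sources do not name, gave 1037 and 730 units. Neither was tested further.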

How the results depend on the processing

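No paired analysis was possible because each condition had 1 array, and for the same reason no replicate could be left out. The median log2 ratio of the members, 0.95 on the authors' scale, was 0.00 with normexp and quantile normalization, 0.33 with normexp and no normalization, 1.27 with median scaling, 0.34 without scaling, 0.69 with 75th percentile scaling, 1.76 with spike-in scaling and 0.46 when scaled to the summed non-member signal. The count of members past the size rule upward, 4 on the authors' scale, was 0, 0, 7, 0, 1, 9 and 0 in the same order, and the count downward was 0 in all. Over all miRNAs, the split of higher against lower was 94 to 36 on the authors' scale, 144 to 19 with median scaling, 22 to 165 without scaling, 52 to 75 with 75th percentile scaling, 282 to 0 with spike-in scaling and 28 to 127 when scaled to the summed non-member signal. The blank median as background changed none of the 10 log2 ratios by more than its error. MiR-1246 turned to -0.35 with quantile normalization, -0.32 with normexp alone, -0.39 without scaling, -0.037 with 75th percentile scaling and -0.27 with the non-member sum; miR-4284 turned to -0.33, -0.26, -0.26 and -0.14 under these without the 75th percentile. For scalings by 1 factor the turns follow from the factor; for the normexp settings the cause was not tested. Without the 4 members with whole-number signal, an alternative chosen after seeing the data, the median was 0.58 and the count 0.

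The members' share was higher on the luteolin array under every setting tried, but its size depended on the background. On the control and luteolin arrays, and as a difference, it was 33.2%, 44.2% and 11.0 points with raw signal, 40.9%, 49.2% and 8.29 points with normexp and its offset, 75.5%, 84.3% and 8.81 points with normexp and no offset (also added later), 74.5%, 80.6% and 6.09 points without miR-4454, 84.4%, 87.5% and 3.08 points among probes above the Negative Control spots, and 46.2%, 48.3% and 2.08 points without the whole-number members. With all miRNA probes in the denominator the control share was 81.9%.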
